A study of Homo sapiens with 16 samples.

Results

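Antisense noncoding genes are annotated transcription units that run across another gene on the opposite DNA strand. GENCODE 29, the gene annotation used here, lists 5587 genes of the type antisense, and 5080 of them had at least 1 transcript in the count table, 538 of these at 0 in all 16 libraries. The 1381 genes described here were chosen by their level, without regard to group. After the transcripts of a gene were summed, each had at least 20 estimated counts in at least 3 libraries, and they were 1381 of 31496 genes in the table. Just inside the limit, 47 antisense genes had a third-highest count of 20, and just outside it 42 had 19. In 541 of the 1381 genes every library held 20 counts or more. Another 5 genes reached 20 counts in the libraries of 1 group only, 4 of them in the 48 h knockdown. Their choice rested on that group alone, which favours genes that are higher in it. All 1381 passed the filter on low counts of the test used below.

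The cells were HCT116, an established human colon cancer line, and polyadenylated RNA was sequenced from strand-specific libraries. NORAD, a long noncoding RNA, was repressed by CRISPR interference, a method that sends a nuclease-dead Cas9 with a repressor domain to a promoter. It was induced with doxycycline at 0.5 µg/ml for 24, 48 or 96 h. Each time had libraries labelled wild type and libraries labelled knock down, with 2 of each for 24 h and 3 of each for both later times. The labels name no guide and no clone. The same treatment text, with doxycycline, stands with the wild-type libraries. The labels do not say whether wild-type cells carried the Cas9 construct, nor whether replicates were separate cultures, so p-values measure only how these libraries scatter, and that scatter may be technical.

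Antisense transcripts are made by RNA polymerase II and many are capped, spliced and polyadenylated, but most are kept at low levels. The nuclear RNA exosome, with its adaptor complexes, degrades many of them, and the Integrator complex and cleavage factors end their transcription early. Some act in cis on the gene they cross, by transcription through its promoter, by chromatin marks or by pairing with its RNA, and some, among them hosts of small nucleolar RNAs, work elsewhere or only carry their introns. NORAD itself is an abundant cytoplasmic RNA that binds Pumilio proteins through repeated Pumilio response elements and is known for its part in keeping the genome stable.

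The sequences printed first belong to some of the genes described below. AC104791.1 lies at chr4:145833118-145839580 on the plus strand in GRCh38, within the body of ZNF827 with no exon in common, and fell at every time while ZNF827 rose. The last 200 bases of its 794-base transcript, positions 595 to 794, are shown in lower case. FAM222A-AS1, also without exon overlap, fell at 24 and 48 h, and SNHG7 and SNHG12 are abundant hosts of small nucleolar RNAs that fell at 48 h. For these 3 the promoter from the RefSeq table of GRCh38.p14 is printed, with 250 bases before the start in lower case and the first 50 transcribed bases in capitals.
AC104791.1 transcript: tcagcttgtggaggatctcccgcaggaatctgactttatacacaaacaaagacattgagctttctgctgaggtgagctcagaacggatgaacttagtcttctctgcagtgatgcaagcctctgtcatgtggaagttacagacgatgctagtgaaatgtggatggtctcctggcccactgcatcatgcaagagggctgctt
FAM222A-AS1 promoter, chr12:109773438-109773737, minus strand: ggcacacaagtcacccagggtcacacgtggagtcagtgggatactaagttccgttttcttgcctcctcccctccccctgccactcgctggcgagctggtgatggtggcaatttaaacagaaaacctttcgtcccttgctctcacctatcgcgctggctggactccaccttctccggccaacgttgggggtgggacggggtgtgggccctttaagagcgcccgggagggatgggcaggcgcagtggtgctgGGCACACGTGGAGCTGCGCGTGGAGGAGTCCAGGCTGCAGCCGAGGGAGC
SNHG7 promoter, chr9:136728135-136728434, minus strand: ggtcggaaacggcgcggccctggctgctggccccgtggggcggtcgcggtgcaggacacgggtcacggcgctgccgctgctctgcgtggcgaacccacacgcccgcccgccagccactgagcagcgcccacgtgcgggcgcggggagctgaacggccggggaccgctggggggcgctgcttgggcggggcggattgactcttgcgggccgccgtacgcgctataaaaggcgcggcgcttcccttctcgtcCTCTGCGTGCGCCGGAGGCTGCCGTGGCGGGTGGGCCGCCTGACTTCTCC
SNHG12 promoter, chr1:28581824-28582123, minus strand: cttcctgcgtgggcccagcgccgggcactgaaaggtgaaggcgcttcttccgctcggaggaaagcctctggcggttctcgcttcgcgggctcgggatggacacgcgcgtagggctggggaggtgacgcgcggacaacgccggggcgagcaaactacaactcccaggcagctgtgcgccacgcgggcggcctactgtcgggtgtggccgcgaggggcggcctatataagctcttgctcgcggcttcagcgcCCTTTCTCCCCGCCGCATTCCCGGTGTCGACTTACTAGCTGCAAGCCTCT

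The FAM222A-AS1 promoter has 63.0% G or C and 17 CpG, that of SNHG7 75.3% and 43, and that of SNHG12 67.3% and 35. Of the 1381 antisense genes, 289 matched a promoter of the RefSeq table by symbol. The median of these was 62.7% G or C and 20 CpG, against 58.7% and 14 over all 35116 promoters of the table. The RefSeq start of SNHG7 is the GENCODE start of the gene, that of FAM222A-AS1 lies 21 bases inside it, and that of SNHG12 lies 1259 bases inside it.

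The libraries held 28391784 to 51853876 estimated counts, of which antisense genes took 0.357% to 0.557%. Levels are given as CPM, counts relative to the size of the library after TMM scaling (a trimmed mean of the log ratios between libraries), and different genes are compared as TPM, which also allow for length. NORAD stood at 155 to 201 CPM in the 8 wild-type libraries. The 24 h libraries labelled knockdown held 230 and 188 CPM. The 48 h knockdown held 21.8, 18.1 and 24.8 CPM, and that of 96 h 79.9, 72.7 and 66.1 CPM. NORAD was therefore not lower in the 24 h libraries labelled knockdown (log2 fold change 0.14, edgeR adjusted p = 0.523), and every direction at 24 h below rests on those labels. Of 6 epithelial markers, EPCAM, KRT8, KRT18, CDH1 and CDX2 were present in every library and VIL1 was at 0 to 0.668 CPM, and the 8 markers of other cells summed to 34.5 to 81.1 CPM, of which COL1A1 gave 33.6 to 79.5. Replicates 1 and 2 of the 48 h knockdown stood apart from replicate 3, as described beside the results they touch.

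Antisense genes were weakly expressed. Their median level was 1.19 TPM, against 10.5 TPM for their protein-coding partners, and the median of the mean CPM was 0.906. In 732 genes the mean was at most 1 CPM, in 24 it was over 20 CPM, and 72 were over 10 TPM. In 1298 genes every library held at least 1 count. A protein-coding gene present in the table overlapped 1224 of the 1381 on the opposite strand, and for the other 157 no such partner was found. By position, 552 lay wholly inside their partner (contained), 298 met it at the 3′ ends (tail-to-tail), 292 at the 5′ ends (head-to-head), and 82 spanned it. The start sites of 191 pairs lay within 1000 bases of each other. In 269 of the 1139 pairs in which both genes were tested, the antisense gene had the higher TPM.

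Exons of antisense genes often lie on exons of the other strand. In 997 of the 1381 genes part of the exon length, and in 104 over 90% of it, overlapped an exon of the opposite strand, and 384 had no such overlap. The strand setting of the authors' counting is not given in the sources used here. Where exons overlap, it is therefore not known whether reads of a gene and of its antisense partner were told apart. Counts for the 384 genes without overlap are therefore given beside the main counts.

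The genes with the highest level by TPM show both kinds. AC093484.3, whose exons lie wholly within exons of the ubiquitin gene UBB, had a mean of 652 TPM. ZFAS1, a host of small nucleolar RNAs, followed with 293 TPM, AC005884.2 with 213 and AL035078.1 with 204. The next were WEE2-AS1 with 129 TPM, AC006064.4 with 111, SNHG7 with 84.1, SNHG12 with 65.1, AC011611.3 with 62.1 and AC132825.2 with 52.8. ZFAS1 had 138 to 199 CPM over the wild-type libraries and 120 to 166 CPM over those labelled knockdown, and did not pass the test at any time (log2 fold changes of -0.24, -0.17 and -0.09 at 24, 48 and 96 h).

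Several of these abundant genes differed more between times than between groups. AL035078.1 stood at 0.92 to 2.03 CPM in all 4 libraries of 24 h and at 116 to 319 CPM in all 12 later ones. AC005884.2 did the reverse, with 119 to 169 CPM at 24 h and 0.457 to 3.38 CPM later, and WEE2-AS1 likewise, with 86.4 to 390 CPM at 24 h and at most 1.05 CPM later. AC006064.4, whose exons lie wholly within exons of the glycolytic gene GAPDH, was at 12.9 to 60.9 CPM in the 48 h wild type and at 188, 336 and 70.9 CPM in the 48 h knockdown, but at most 0.626 CPM in every other library. In the wild type alone, 275 of the 1381 genes differed between 96 h and 24 h (129 higher, 146 lower, 19.9%), against 35.2% of all 19836 tested genes (16.2% higher, 19.1% lower). Of the 384 without exon overlap 71 differed, 28 higher and 43 lower. AL035078.1 rose by 6.41 on the log2 scale (SE 0.377, edgeR adjusted p = 1.29e-07), and AC005884.2 fell by 6.40 (SE 0.396, adjusted p = 3.37e-07). The effect of the time in culture and of anything handled separately at each time cannot be told apart.

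At 24 h, few antisense genes differed between the libraries labelled knockdown and wild type. Of 1381, 59 passed the test (4.27%), 32 higher and 27 lower, against 17.6% of all tested genes (5.14% higher, 12.4% lower). The median log2 fold change was 0.10, against -0.02 over all tested genes. These shares are not matched for level. At mean levels of at most 1, 1 to 2, 2 to 5, 5 to 20 and over 20 CPM, 1.23%, 3.33%, 8.6%, 18.3% and 8.33% of antisense genes passed. Of the other tested genes at these levels 1.06%, 6.1%, 12.1%, 17.8% and 33.9% passed. The split into higher and lower depends on the scaling of the libraries: it was 61 higher and 12 lower with total counts, 45 and 15 with the upper quartile, and 19 and 33 with a scaling that follows abundance. It also rests on single libraries: without wild-type replicate 2 of 24 h, 1 gene was higher and 17 lower, and over the libraries left out in turn 18 to 88 passed. When the model held the 24 h libraries alone, 82 antisense genes were higher and 39 lower, and the share of all tested genes in that fit is not given. Among the 384 genes without exon overlap, 13 passed in the main fit, 3 higher and 10 lower.

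Of the 32 rises at 24 h, 8 were of genes with a mean of at most 1 CPM, 8 at 1 to 2 CPM, 7 at 2 to 5 CPM and 9 at 5 to 20 CPM, and the named ones, chosen by fold, were at low levels. IGF2-AS, which lies across the imprinted insulin and IGF2 locus, had 1.32 and 0.841 CPM in the wild type and 3.38 and 2.56 CPM in the libraries labelled knockdown. The 2 groups did not overlap, which was a condition for naming it, and its log2 fold change was 1.46 (SE 0.362, edgeR adjusted p = 0.00709). AC027796.4, inside CTNS, rose from 1.05 and 1.06 CPM to 2.58 and 2.66 CPM (log2 fold change 1.31, adjusted p = 0.00642). TARID, an antisense RNA known for directing demethylation of the TCF21 promoter, went from 0.791 and 0.585 CPM to 1.39 and 1.60 CPM (1.12, adjusted p = 0.0246). AC067930.2, TMEM9B-AS1 and AL356599.1 rose by 1.22, 1.15 and 1.06 on the log2 scale. These are small numbers of counts, and leaving out 1 library of 24 h ended the call in each of the 6 genes, with adjusted p up to 0.229.

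Of the 27 falls at 24 h, 12 were of genes at 2 to 5 CPM, 10 at 5 to 20 CPM and 2 above 20 CPM. MGC32805 had 10.8 and 11.8 CPM in the wild type and 4.60 and 4.07 CPM in the libraries labelled knockdown, a log2 fold change of -1.39 (SE 0.176, adjusted p = 2.22e-05). AC019068.1 had 10.6 and 10.4 CPM against 3.32 and 5.10 CPM (-1.31, adjusted p = 3.24e-05). AL392023.2 had 15.8 and 16.9 CPM against 7.30 and 6.24 CPM (-1.28, adjusted p = 0.0164), and AL109615.3 had 18.3 and 15.1 CPM against 7.92 and 6.05 CPM (-1.26, adjusted p = 0.000153). In each of these 4 genes the wild-type libraries lay above both others, which was a condition for naming them. AL160408.2, wholly within exons of IRF2BP2, fell by 1.78 while IRF2BP2 itself fell by 0.60. AC087393.2, wholly within exons of USP22, was at 4.86 and 1.83 CPM in the wild type and at 0 in both libraries labelled knockdown. With 3 counts over the group as the floor it was at least 83.6-fold lower, by counting error only. Replicates scattered more than that, with 0, 0.644 and 1.18 CPM in the 96 h wild type. Its adjusted p was 0.0459 and, over the libraries left out, up to 0.21. AC087393.2 did not pass with total counts (0.0557), the upper quartile (0.0546) or no filter (0.0757). Nor did it with a replicate block (0.15) or the 24 h libraries alone (0.101). AL160408.2 and AL392023.2 lost their calls when any of the 4 libraries of 24 h was left out (adjusted p up to 0.214 and 0.169). WEE2-AS1 had 390 and 172 CPM in the wild type and 153 and 86.4 CPM in the others (-1.23, adjusted p = 0.0358), and without wild-type replicate 1 it did not pass (adjusted p = 0.344).

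At 48 h, when NORAD was lowest, 278 antisense genes passed (20.1%), 218 higher and 60 lower, against 33.2% of all tested genes (14.8% higher, 18.5% lower). From the lowest to the highest of the levels above, 13.1%, 17.7%, 32.6%, 48.1% and 29.2% of antisense genes passed. Of the other tested genes 10.4%, 26.4%, 34.7%, 39.5% and 49.1% did. The median log2 fold change of the 1381 was 0.36, against 0.06 over all tested genes. The 1381 include 4 genes that reached 20 counts in libraries of the 48 h knockdown only. The knockdown libraries were not alike. The median difference of the 1381 genes from the mean of the 48 h wild type, on the log2 scale, was 0.30 in replicate 1, 0.31 in replicate 2 and -0.02 in replicate 3. Summed over all 1381 genes the 48 h wild type held 3788, 3947 and 3971 CPM and the knockdown 4512, 5095 and 3592 CPM, so the groups overlapped. With replicates 1 and 2 both left out, a setting chosen after seeing the data, 32 genes were higher and 56 lower, and 24 of the 218 rises and 34 of the 60 falls were kept. With replicate 3 left out, 489 passed, 417 of them higher. With the scaling that follows abundance the split was 76 higher and 125 lower, with total counts 329 and 39, and with the upper quartile 306 and 43. Among the 384 genes without exon overlap, 89 passed, 70 higher and 19 lower. By position, 25.2% of tail-to-tail genes passed, 20.3% of contained, 17.1% of spanning and 16.1% of head-to-head genes. The part of the libraries themselves in this shift was not tested.

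**Figure D1:**
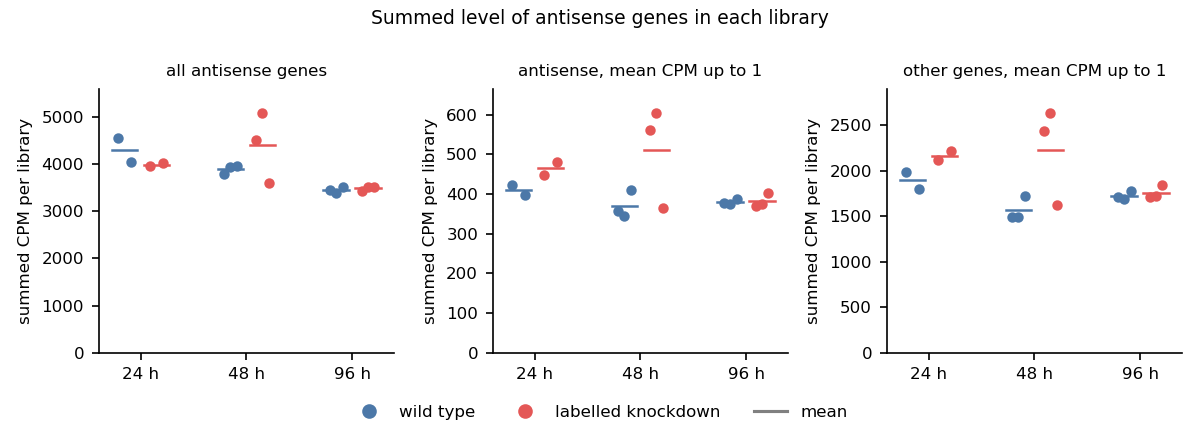
Summed level in CPM of all 1381 antisense genes, of the 732 with a mean of at most 1 CPM, and of the other tested genes with a mean of at most 1 CPM, by time in h. Each point is a library (blue wild type, red labelled knockdown) and each bar the mean of its group. Replicates 1 and 2 of the 48 h knockdown, at 4512 and 5095 CPM over all antisense genes, lie above the wild type of that time and replicate 3, at 3592 CPM, lies below it.

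The median change at 48 h differed with the level of a gene, in antisense genes and in the other classes. Genes with a mean of at most 1 CPM had a median log2 fold change of 0.48 among antisense genes, 0.53 among lincRNA genes and 0.54 among protein-coding genes. Above 20 CPM the medians were -0.10, -0.09 and -0.14. At 24 h the same order ran from 0.19, 0.16 and 0.25 at the lowest level to -0.15, -0.19 and -0.15 at the highest, and at 96 h no median was beyond -0.09 or 0.03. The other genes of at most 1 CPM had medians of 0.24, 0.25 and 0.00 in the 3 knockdown libraries of 48 h, where antisense genes of that level had 0.34, 0.34 and 0.01. The summed level of antisense genes at most 1 CPM was 344 to 409 CPM in the 48 h wild type and 561, 605 and 366 CPM in the knockdown.

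**Figure D2:**
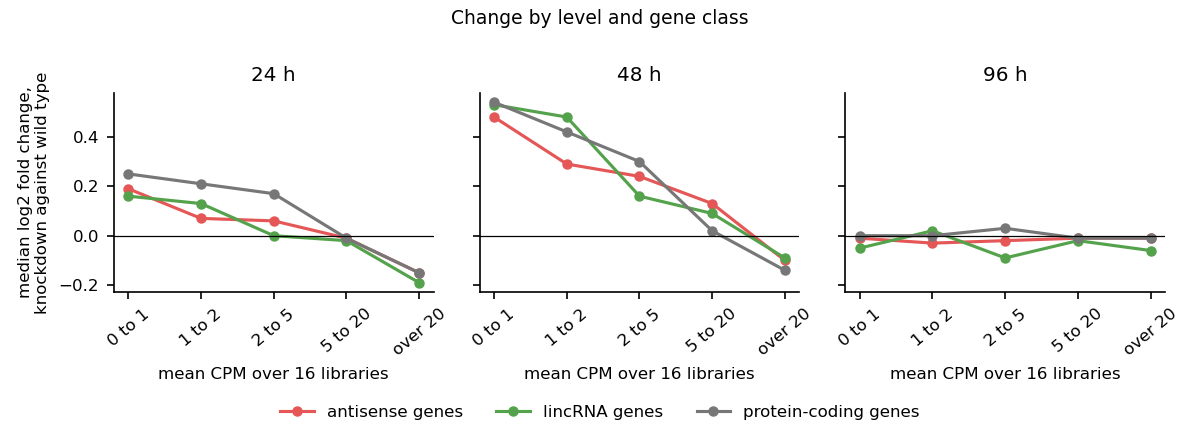
Median log2 fold change of the libraries labelled knockdown against wild type at 24, 48 and 96 h, by the mean CPM of a gene over the 16 libraries. Lines join the medians of antisense, lincRNA and protein-coding genes. At 48 h the 3 classes fall together from 0.48, 0.53 and 0.54 at the lowest level to -0.10, -0.09 and -0.14 at the highest.

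Within that shift, some antisense genes rose in all 3 knockdown libraries of 48 h. The largest rises at a time were named only where the groups of that time did not overlap. TARID had 0.121, 0.379 and 0.331 CPM in the wild type and 1.66, 1.59 and 1.63 CPM in the knockdown (log2 fold change 2.52, SE 0.299, edgeR adjusted p = 2.24e-06). MCPH1-AS1, across from the gene of the chromosome condensation factor microcephalin, had 3.85, 5.03 and 4.30 CPM against 9.03, 10.0 and 9.55 CPM (1.12, SE 0.131, adjusted p = 1.99e-06). AP006284.1 had 5.07, 6.17 and 5.76 CPM against 15.6, 14.8 and 10.1 CPM (1.25, adjusted p = 4.24e-06). In these 3 genes replicate 3 rose with the others, although less in AP006284.1. AC105118.1 had 1.06, 1.08 and 0.965 CPM against 4.17, 4.38 and 1.72 CPM and AL513217.1 had 0.334, 0.352 and 0.662 CPM against 2.05, 1.75 and 0.789 CPM, so that replicate 3 was the nearest to the wild type. Both lost the call without replicates 1 and 2 (adjusted p = 0.0645 and 0.209). MAFA-AS1 had 2.28, 2.08 and 1.90 CPM against 7.15, 7.88 and 3.83 CPM (1.60, adjusted p = 8.43e-06).

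Among the falls at 48 h, 5 of the genes named were low in all 3 knockdown libraries. AC104791.1 had 2.97, 3.0 and 3.34 CPM in the wild type and 0.963, 0.83 and 1.01 CPM in the knockdown (log2 fold change -1.73, SE 0.220, adjusted p = 5.03e-06). FAM222A-AS1 had 4.89, 5.84 and 4.47 CPM against 1.54, 1.87 and 1.83 CPM (-1.54, SE 0.188, adjusted p = 3.35e-06). MGC32805 had 15.0, 19.4 and 17.1 CPM against 5.42, 5.07 and 6.59 CPM (-1.59, adjusted p = 4.64e-08). JMJD1C-AS1, inside the gene of a histone demethylase family member, had 2.94, 3.84 and 4.19 CPM against 1.06, 1.15 and 1.83 CPM (-1.45, adjusted p = 2.33e-05). RNASEH1-AS1, which starts head-to-head with the gene of ribonuclease H1, an enzyme that cleaves the RNA of RNA-DNA hybrids, had 8.07, 5.62 and 6.59 CPM against 2.48, 2.67 and 3.18 CPM (-1.28, adjusted p = 6.21e-06). In these 5 genes no knockdown library reached the lowest wild-type library, which was a condition for naming them. AL392023.2, with 6.86, 7.49 and 7.20 CPM against 3.47, 1.54 and 5.04 CPM (-1.11, adjusted p = 0.00886), varied more among the knockdown libraries.

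Among hosts of small nucleolar RNAs, SNHG7 had 112, 113 and 113 CPM in the 48 h wild type and 70.1, 77.9 and 73.2 CPM in the knockdown (log2 fold change -0.61, SE 0.0815, adjusted p = 9.23e-06). SNHG12 had 93.5, 97.6 and 91.4 CPM against 67.4, 76.5 and 62.9 CPM (-0.45, adjusted p = 0.000694). Both also had wild-type levels at 24 and 96 h well below those of 48 h, 63.0 to 67.4 and 49.1 to 56.8 CPM for SNHG7 and 51.7 to 61.5 CPM for SNHG12 over the 2 times. At 96 h SNHG12 was still lower, with 56.3, 61.5 and 60.5 CPM against 42.4, 48.8 and 49.5 CPM (-0.34, adjusted p = 0.0171), while SNHG7 did not pass (-0.16, adjusted p = 0.251). Leaving out 1 of 3 libraries of 96 h ended the call of SNHG12 (adjusted p up to 0.0962). SNHG7 passed at 24 h (-0.36, adjusted p = 0.0152), but not with any of the other scalings (adjusted p 0.129 to 0.343).

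Of 96 symbols of named antisense RNAs in a list written from general knowledge, 38 were among the 1381. The list was chosen with earlier results of these data known. By edgeR 0 of 38 passed at 24 h and at 96 h (3 and 2 at an unadjusted p under 0.05, and 0 by DESeq2 at either time), and at 48 h 3 rose and 2 fell. Of all tested genes 17.6%, 33.2% and 10.5% passed at the 3 times, and of the 1381 antisense genes 4.27%, 20.1% and 2.03%. The rises were of TMEM161B-AS1 (log2 fold change 0.44), NNT-AS1 (0.63) and STARD4-AS1 (1.03), and the falls of PXN-AS1 (-0.51) and FGD5-AS1 (-0.24). TMEM161B-AS1 had 6.01, 5.71 and 6.12 CPM in the wild type and 7.75, 8.53 and 7.89 CPM in the knockdown, without overlap. NNT-AS1, at 4.92, 5.03 and 6.23 CPM against 7.78, 11.5 and 5.64 CPM, overlapped, and replicate 3 was within the wild type. Without replicates 1 and 2 of the knockdown, TMEM161B-AS1, NNT-AS1, STARD4-AS1 and FGD5-AS1 lost the call, with adjusted p from 0.0696 to 0.859. The direction of this list at 48 h flips with the scaling: 6 rose and 0 fell with total counts, 5 and 0 with the upper quartile, and 2 and 7 with the scaling that follows abundance. PXN-AS1 and FGD5-AS1 lost the call with total counts (adjusted p = 0.0762 and 0.409).

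At 96 h, when NORAD was lower than in the wild type (log2 fold change -1.33), 28 of 1381 passed (2.03%), 9 higher and 19 lower, against 10.5% of all tested genes (5.35% higher, 5.15% lower). The median was -0.02, against -0.01 over all tested genes, and no scaling moved it by more than 0.02. From the lowest to the highest level, 0.683%, 1.67%, 3.17%, 9.62% and 4.17% of antisense genes passed. Of the other tested genes 0.59%, 3.73%, 5.95%, 13.2% and 19.4% did. When the model held the 96 h libraries alone the balance turned, to 35 higher and 30 lower, and with 1 library left out 14 to 45 passed. AC008537.4 had 6.03, 4.69 and 3.99 CPM in the wild type and 9.0, 9.19 and 11.6 CPM in the knockdown (log2 fold change 1.01, adjusted p = 0.00219), and AC023043.1 had 1.48, 1.45 and 1.54 CPM against 2.57, 3.03 and 2.04 CPM (0.77, adjusted p = 0.034). LUCAT1, a stress-induced RNA, fell from 0.96, 1.25 and 0.889 CPM to 0.465, 0.476 and 0.706 CPM (-0.92, adjusted p = 0.0362). AC099850.3 and AC099850.1, on opposite strands of the neighbourhood of the cell-cycle gene PRR11 and the kinetochore gene SKA2, fell by 0.93 and 1.13. PRR11 itself fell at 96 h, from 40.5, 41.1 and 36.9 CPM to 26.9, 26.0 and 24.7 CPM (-0.61, adjusted p = 6.76e-06). Leaving out 1 library ended the call of AC023043.1, AC099850.1 and LUCAT1 for more than 1 library each, with adjusted p up to 0.191. Among genes without exon overlap 5 passed, 0 higher and 5 lower.

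Among antisense genes, calls at different times rarely went in opposite directions. The same overlaps were not counted over all tested genes, so whether they are particular to antisense genes is not known. Of 59 genes that passed at 24 h, 35 also passed at 48 h (59.3%, and 12.6% of the 278), all 35 in the same direction. Of the 28 that passed at 96 h, 19 also passed at 48 h (67.9%, and 6.83% of the 278), 18 of them in the same direction. In all, 311 genes passed at some time. The effect itself differed between times in 39 genes (edgeR F test, adjusted p), against 9.44% of all tested genes, and in 177 at an unadjusted p under 0.05. Of the 384 genes without exon overlap it differed in 8.

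In 12 genes the test was passed in 1 direction at all 3 times, 4 higher and 8 lower. Over all tested genes this held for 873 of 19836 (4.4%), so the 12 of 1381 were a smaller share. The 2 shares are not matched for level, and fewer genes of at most 1 CPM passed in every class. In all 12 no wild-type library overlapped a knockdown library of the same time. They were picked by a test that favours such groups, and the share among the 873 was not counted. Those outside the naming rule, AC067930.5, PRR34-AS1, SNHG21 and AC073655.2, were chosen after their values were seen. IGF2-AS rose at all times, at 48 h from 3, 1 and 0 counts in the wild type to 16, 25 and 20 counts, and at 96 h from 0.772, 0.765 and 0.673 CPM to 1.71, 1.70 and 1.65 CPM (log2 fold change 1.19, adjusted p = 0.0105). AP006284.1 rose by 0.59, 1.25 and 0.58 at 24, 48 and 96 h. AC067930.5 rose by 0.77, 0.91 and 0.46, and AC022966.1, whose exons lie wholly within exons of TIMP2, an inhibitor of metalloproteinases, by 0.80, 0.53 and 0.95.

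The 8 that fell at all times were AC019068.1, PRR34-AS1, MGC32805, SNHG21, AC104791.1, AP000446.1, AC073655.2 and AL392023.2. MGC32805 fell by 1.39, 1.59 and 0.80 on the log2 scale at 24, 48 and 96 h. At 96 h it had 16, 11.4 and 16.4 CPM in the wild type and 8.56, 7.91 and 8.62 CPM in the knockdown. AC019068.1, across from ASB18, fell by 1.31, 0.79 and 0.75, and AL392023.2, across from TTC6, by 1.28, 1.11 and 1.16. AP000446.1, head-to-head with CCDC90B, fell by 0.82, 0.69 and 1.00, while CCDC90B did not pass at any time (-0.13, -0.05 and -0.06). PRR34-AS1 fell by 0.95, 0.37 and 0.40, and SNHG21, a host of small nucleolar RNAs, by 0.68, 0.58 and 0.48. AC073655.2 was at most 1.82 CPM and fell from 0.565 and 0.293 CPM to 0.0297 and 0.0239 CPM at 24 h. NORAD was not lower at 24 h, so these 12 genes differed with the labels also where NORAD did not. With 1 library left out, 5 to 12 of the 12 kept all 3 calls. Only AC019068.1 and MGC32805 kept them whichever library was left out, and AC104791.1 lost the call at 96 h without knockdown replicate 1 (adjusted p = 0.0503). With total counts and with the upper quartile 8 kept all 3 calls, and AC067930.5, AP000446.1, PRR34-AS1 and SNHG21 did not. With the scaling that follows abundance AC022966.1 did not pass at 48 h (0.35, adjusted p = 0.166). Without replicates 1 and 2 of the 48 h knockdown AP000446.1, PRR34-AS1 and SNHG21 lost a call.

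**Figure D3:**
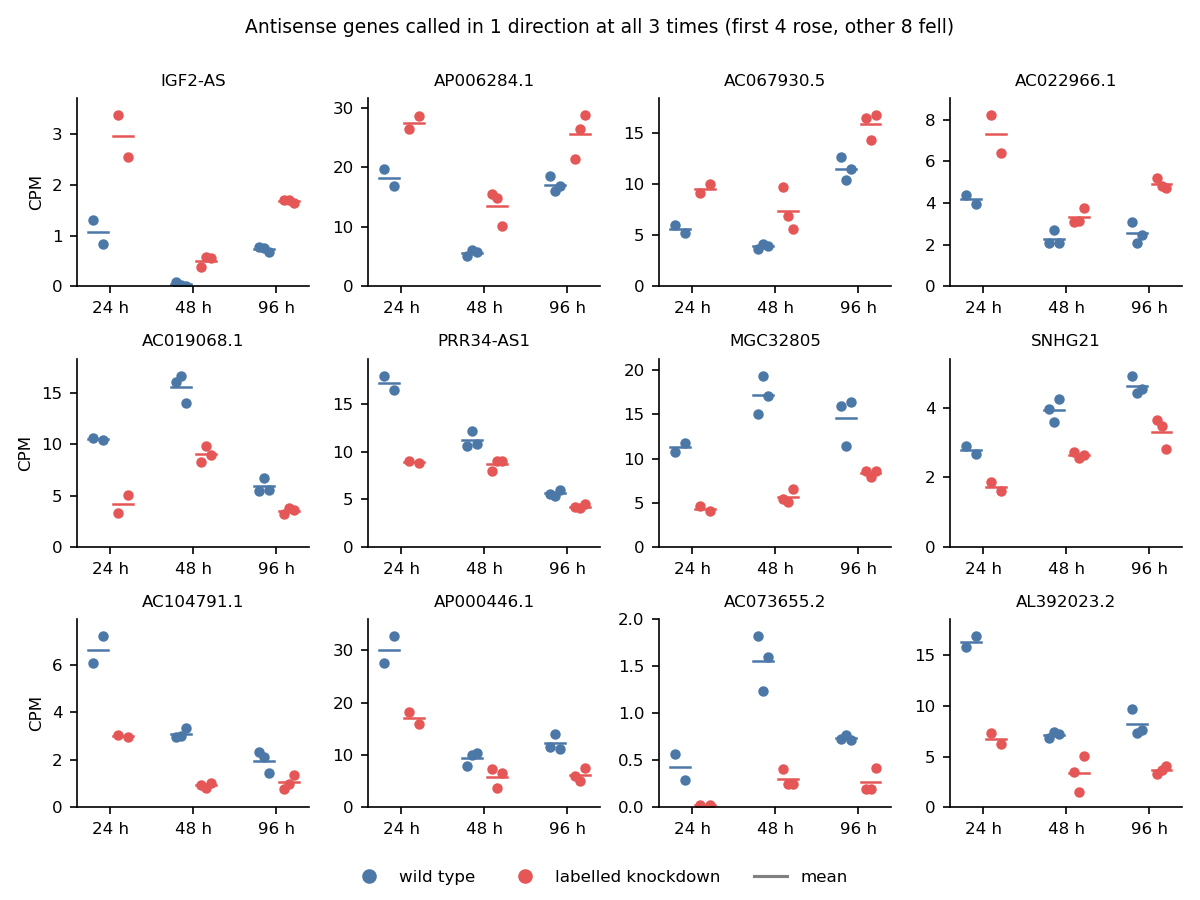
Level in CPM, by time in h, of the 12 antisense genes that passed in 1 direction at all 3 times, the first 4 higher and the other 8 lower. Each point is a library (blue wild type, red labelled knockdown) and each bar the mean of its group. In every panel and at every time the 2 groups lie apart, as for MGC32805 at 48 h with 15.0 to 19.4 CPM against 5.07 to 6.59 CPM. The genes were picked by a test that favours this.

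The relation to the overlapping sense gene was measured in 1139 pairs, as the log2 ratio of antisense to sense counts and as the 2 fold changes side by side. At 24 h the ratio changed in 23 pairs (2.02%), 12 higher and 11 lower, against 4.64% of the 4780 opposite-strand pairs of all gene types. At 48 h it changed in 140 (12.3%), 97 higher and 43 lower, against 16.4%, and at 96 h in 3 (0.263%), each of them lower, against 1.72%. The median change of the log2 ratio was 0.13, 0.32 and -0.02. These are limma tests of all libraries together. In fits of the libraries of 1 time alone 0, 1 and 0 pairs passed. Without replicates 1 and 2 of the 48 h knockdown, 10 ratios were higher and 27 lower at 48 h, and at 24 h 32 and 14.

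Across the 1139 pairs, the changes of antisense and sense gene were weakly related. Pearson's r was 0.09 at 24 h, 0.16 at 48 h and 0.09 at 96 h, and Spearman's rho 0.16, 0.19 and 0.21, given as a description over pairs that share the same libraries and, where exons overlap, may share reads. At 48 h r was 0.33 in the 278 head-to-head pairs, 0.17 in the 526 contained pairs and 0.07 in the 281 tail-to-tail pairs. Over the 223 pairs whose antisense gene had no exon overlap it was 0.02, 0.04 and 0.07 at the 3 times, and rho was 0.04, 0.13 and 0.20. Both genes passed in 21, 97 and 7 pairs. At 48 h, 39 of the 97 rose together, 15 fell together, 38 had the antisense gene higher and the sense gene lower, and 5 had the antisense gene lower and the sense gene higher. Of the 38, 22 were tail-to-tail pairs. Whether these signs would differ from those of unrelated genes of the same levels was not tested.

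**Figure D4:**
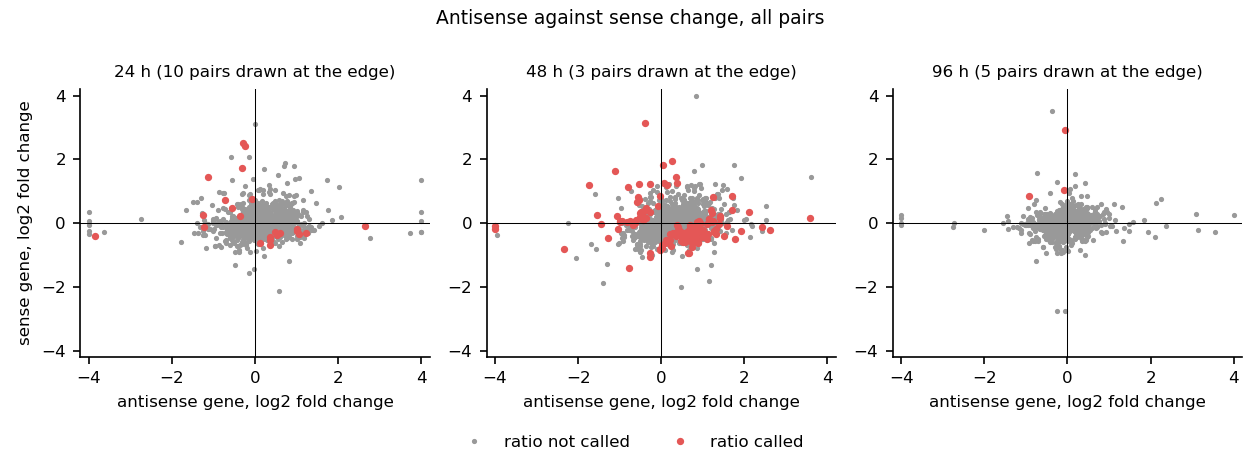
Log2 fold change of the sense gene against that of the antisense gene in 1139 pairs at 24, 48 and 96 h, with values beyond 4 drawn at the edge (10, 3 and 5 pairs). Red points are pairs whose ratio passed the limma test, 23, 140 and 3 of them. The clouds have no clear slope (Pearson's r 0.09, 0.16 and 0.09), and at 48 h the cloud lies to the right of 0.

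AC104791.1 and ZNF827, a zinc finger gene whose protein is known to bring a chromatin remodelling complex to telomeres, moved in opposite directions at every time. ZNF827 had 23.0 and 24.4 CPM in the 24 h wild type and 65.4 and 62.9 CPM in the libraries labelled knockdown. At 48 h it had 44.0, 47.6 and 48.8 CPM against 106, 108 and 105 CPM, and at 96 h 52.1, 48.7 and 51.1 CPM against 92.6, 86.4 and 93.7 CPM. Its log2 fold changes were 1.44, 1.19 and 0.84, with edgeR adjusted p at most 8.23e-08. AC104791.1 fell by 1.14, 1.73 and 0.92. The log2 ratio of AC104791.1 to ZNF827 changed by -2.57 (SE 0.259, limma adjusted p = 0.000465), -2.91 (SE 0.212, adjusted p = 1.91e-05) and -1.75 (SE 0.212, adjusted p = 0.00433). The pair has 0 bases of exon overlap and its start sites lie 105517 bases apart. In the wild type alone AC104791.1 was lower and ZNF827 higher at 96 h than at 24 h (6.06 and 7.20 CPM at 24 h and 2.34, 2.13 and 1.44 CPM at 96 h for AC104791.1).

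VPS9D1-AS1, also known as MYU and described in colon cancer as a target of Wnt signalling, lies inside VPS9D1. VPS9D1-AS1 had 39.6, 44.0 and 40.7 CPM in the 48 h wild type and 29.7, 25.0 and 28.3 CPM in the knockdown (log2 fold change -0.58, adjusted p = 8.57e-05), and did not pass at 24 or 96 h (-0.08 and 0.09). VPS9D1 rose at 48 h from 13.0, 14.8 and 13.0 CPM to 23.0, 22.5 and 19.2 CPM (0.67, adjusted p = 3.53e-05) and at 24 h by 0.76. The ratio fell by 0.85 at 24 h and by 1.25 at 48 h (limma adjusted p = 0.00877 and 8.75e-05), and by 0.21 at 96 h, where it did not pass (adjusted p = 0.479). Exons of this pair overlap by 518 bases.

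In other pairs the test was passed by 1 of the genes. FAM222A-AS1 fell at 24 and 48 h (-1.22 and -1.54) while FAM222A, met tail-to-tail with no common exon, did not pass (-0.11 and 0.24). The ratio fell by 1.05 and 1.76 (limma adjusted p = 0.0353 and 0.00035). At 24 h FAM222A-AS1 had 1.51 and 2.38 CPM in the wild type and 0.831 and 0.837 CPM in the libraries labelled knockdown. Without the wild-type library at 2.38 CPM its change at 24 h was -0.85. NUTM2A-AS1 did not pass (-0.25 at 24 h), and NUTM2A, at 0.376 and 0.914 CPM against 4.07 and 2.85 CPM at 24 h, rose by 2.41, so that the ratio fell by 2.74. Exons overlap by 289 bases in this pair and by 605 in the next. NOP14-AS1 did not pass at any time (0.12, 0.01 and 0.22) and NOP14, a factor of small ribosomal subunit assembly, fell at all times (-0.62, -0.70 and -0.28), with ratio changes of 0.74 and 0.71 at 24 and 48 h (adjusted p = 0.0137 and 0.00224) and 0.50 at 96 h (adjusted p = 0.0528). IFITM3, an interferon-induced protein of the cell membrane, rose at 96 h from 346, 316 and 329 CPM to 650, 709 and 678 CPM (1.04, adjusted p = 5.25e-08), while AC136475.1, tail-to-tail with it and without exon overlap, stayed between 3.11 and 3.87 CPM in all 6 libraries, and the ratio fell by 1.12 (adjusted p = 0.0287).

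Some pairs had the antisense gene higher and the sense gene lower. At 48 h MCPH1-AS1 rose by 1.12 and MCPH1 fell by 0.34 (adjusted p = 0.00908), a ratio change of 1.48 (adjusted p = 0.000337). The fall of MCPH1 did not pass with total counts (adjusted p = 0.071) or without replicates 1 and 2 of the knockdown (-0.08, adjusted p = 0.64). KIF9-AS1 rose by 0.59 and KIF9, a kinesin gene, fell by 0.45, a ratio change of 1.03 (adjusted p = 0.000395). KIF9-AS1 had 3.22, 3.54 and 3.03 CPM in the wild type and 5.66, 4.75 and 4.31 CPM in the knockdown, and KIF9 had 10.6, 11.4 and 10.4 CPM against 7.95, 8.21 and 7.58 CPM, without overlap in either. Without replicates 1 and 2 of the knockdown KIF9-AS1 did not pass (adjusted p = 0.149). Exons overlap by 406 bases in the MCPH1 pair and by 870 in the KIF9 pair, and whether reads were told apart there is not known. C5orf66 rose at 24 h by 1.00 across from H2AFY, the gene of a macroH2A histone, which did not pass (-0.17), and most of the exon length of C5orf66 (71.2%) overlaps exons of the opposite strand. Without wild-type replicate 1 C5orf66 did not pass (adjusted p = 0.176).

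Other pairs moved together. RNASEH1 fell with RNASEH1-AS1 at 48 h, from 30.9, 30.9 and 28.4 CPM to 20.2, 21.2 and 24.3 CPM (-0.46, adjusted p = 0.000179). It also fell at 24 h (-0.52, adjusted p = 0.00104), where RNASEH1-AS1 did not pass (-0.43, adjusted p = 0.203). Their start sites are 124 bases apart and their exons overlap by 125 bases. LMNTD2 rose with AP006284.1, which lies inside it, by 0.61, 0.83 and 0.51 at 24, 48 and 96 h, and TIMP2 rose with AC022966.1 by 0.58, 0.40 and 0.36. Exons overlap by 1097 bases in the LMNTD2 pair and by all 367 bases of AC022966.1 in the TIMP2 pair. Whether reads of the 2 genes were told apart there is not known.

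**Figure D5:**
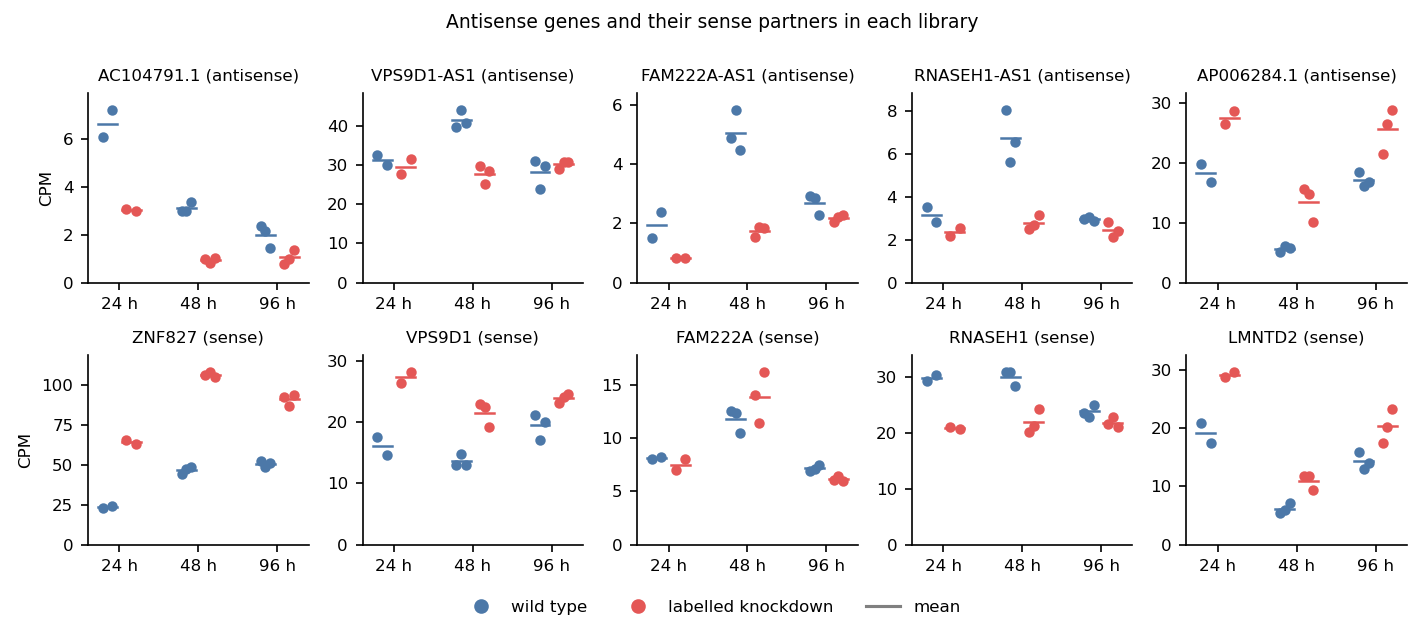
Level in CPM, by time in h, of 5 antisense genes (top) and of the sense gene each crosses (bottom). Each point is a library (blue wild type, red labelled knockdown) and each bar the mean of its group. AC104791.1 lies lower and ZNF827 higher at every time, RNASEH1-AS1 and RNASEH1 are both lower at 48 h, and AP006284.1 and LMNTD2 are both higher at every time.

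Part of the genes of the machinery that removes antisense RNA fell at 24 and 48 h. The lists were chosen with earlier results of these data known, so their counts are a description only. Of 26 tested genes of the RNA exosome and its adaptors, 13 fell and 0 rose at 24 h, 15 fell and 1 rose at 48 h, and 3 fell and 0 rose at 96 h, with medians of -0.31, -0.29 and -0.12. Of all tested genes 12.4%, 18.5% and 5.15% fell, and of the 7376 protein-coding genes over 20 CPM 2070 fell at 24 h and 2797 at 48 h. EXOSC7 had 63.3, 63.6 and 60.8 CPM in the 48 h wild type and 36.1, 41.5 and 42.5 CPM in the knockdown (log2 fold change -0.64, adjusted p = 1.07e-06), and EXOSC3 had 58.1, 54.5 and 56.1 CPM against 30.1, 35.2 and 38.8 CPM (-0.70, adjusted p = 7.8e-06). In both all 3 knockdown libraries were low, but the genes named from these lists were picked by lowest p. Of 27 genes of Integrator and of transcription termination, 11, 14 and 2 fell and 0 rose at 24, 48 and 96 h, and INTS10 fell by 0.52 at 48 h. Genes of this level were generally lower at 24 and 48 h (medians of -0.15 and -0.14 for protein-coding genes over 20 CPM). With total-count scaling 4 exosome genes fell at 24 h and 10 at 48 h, and 1 Integrator gene fell and 1 rose at 24 h (median -0.01). With the scaling that follows abundance 7 and 10 exosome genes and 6 and 8 Integrator genes fell. Their part in the antisense levels was not tested.

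Of 25 tested genes that sense or process double-stranded RNA, 7 rose and 2 fell at 24 h. At 48 h 3 rose and 6 fell, and at 96 h 2 rose and 3 fell. Of all tested genes 17.6%, 33.2% and 10.5% passed at these times. This list too was chosen with earlier results of these data known, and the genes named from it by lowest p. OAS1, which makes 2′-5′ oligoadenylates on binding double-stranded RNA, had 2.94 and 2.16 CPM in the 24 h wild type and 15.9 and 16 CPM in the libraries labelled knockdown (log2 fold change 2.65, adjusted p = 3.79e-08). IFIH1, a cytoplasmic sensor of long double-stranded RNA, had 7.57 and 6.47 CPM against 18.7 and 16.9 CPM (1.34, adjusted p = 7.85e-06). At 48 h OAS1 was lower (-0.61, adjusted p = 0.0147) and IFIH1 did not pass (-0.11). Without replicates 1 and 2 of the knockdown OAS1 did not pass at 48 h (adjusted p = 0.637). DHX9, an RNA helicase, fell at 48 and 96 h (-0.56 and -0.56). Its fall at 24 h (-0.40) did not pass with any other scaling (adjusted p 0.0911 to 0.343) or without wild-type replicate 2 (0.364), and that at 48 h did not pass without replicates 1 and 2 of the knockdown (-0.24, adjusted p = 0.0584). With total-count scaling 5 of the 25 rose and 2 fell at 48 h, with the scaling that follows abundance also 5 and 2, and without replicates 1 and 2 of the knockdown 4 rose and 0 fell, so the direction of this list at 48 h flips with these settings.

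The Pumilio response element, TGTANATA, was searched for on the sense strand of the transcripts. It occurred in 180 of the 1381 antisense genes (13.0%), with at most 9 copies, against 275 of 1963 tested lincRNA genes (14.0%). Genes with the element were longer, with a median exon length of 3347.5 bases against 1198. Genes with and without it had medians of 0.12 against 0.10 at 24 h, of 0.35 against 0.36 at 48 h, and of -0.01 against -0.02 at 96 h. At 48 h 36 of the 180 rose and 5 fell, and of the rest of the 1381, without it, 182 rose and 55 fell. Of all tested genes 14.8% rose and 18.5% fell, and the difference in length was not allowed for. These examples show the first element of 4 genes that are described above, with the element in capitals, since NORAD is known for this element. A match is a description of the letters and not a bound site.
NUTM2A-AS1: aatttgcctatTGTAAATAtttcacataat
TARID: ttaataagaaaTGTAGATAatgtatgctgc
IGF2-AS: ctgtaaaatggTGTATATAtgtataaataa
FGD5-AS1: taagcagtagtTGTAGATAtgctaagtttt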

How the data were processed

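The deposited table holds estimated counts per transcript as whole numbers, and the submitters' processing notes name kallisto and DESeq2, with no version and no strand setting. Of 166096 transcripts 156584 matched GENCODE 29 and were summed per gene, and 9512 did not match and were left out. Estimated counts were used as deposited, and genes were placed by GENCODE 29 on GRCh38. Levels and fold changes came from edgeR 4.0.16 in R 4.3.3 (filterByExpr, TMM, robust quasi-likelihood test, 19836 genes tested, Benjamini-Hochberg adjustment over all of them, threshold 0.05, 10 residual degrees of freedom). All 16 libraries entered 1 model with a term for each of the groups, without a replicate block. Ratios of antisense to sense, log2 with 0.5 counts added, were tested with limma 3.58.1 over 4780 opposite-strand pairs. DESeq2 1.42.0, other scalings (1 of them loess with a span of 0.3), no filter, a replicate block, the libraries of 1 time, each library left out, pairs with at least 50 counts and other pair settings were alternatives. Leaving out both replicates 1 and 2 of the 48 h knockdown was chosen after seeing the data. The steps were tested on simulated data.

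Named genes were, at each time, the 6 largest rises and 6 largest falls with a mean of at least 1 CPM and groups that did not overlap, the 10 highest by TPM, up to 10 of the list of known antisense RNAs, the 5 pairs with the lowest ratio p and at least 50 counts in both genes, their sense genes, up to 4 genes at a time from the exosome, Integrator and double-stranded RNA lists, and NORAD. The members and lists were chosen with earlier results of these data known. Sequences came from RefSeq and GENCODE tables and were searched in Python 3.11.15. The sequence of a further transcript is not reported here.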

Additional observations from a re-analysis of the deposited data

Results flagged for a closer look

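In 11 of the named antisense genes the difference between libraries labelled knockdown and wild type itself differed between 24, 48 and 96 h. This was the edgeR F test of the interaction, adjusted over all tested genes. It was passed by 9.44% of all tested genes and by 39 of the 1381 antisense genes. Many named genes were picked as the largest changes at 1 time, which favours such a difference. The adjusted p was 0.00376 for AL109615.3, which fell at 24 h (-1.26) and had log2 fold changes of 0.21 and -0.14 later. It was 0.00657 for VPS9D1-AS1 and 0.0112 for FAM222A-AS1, lower at 48 h by 0.58 and 1.54 and near the wild type at 96 h (0.09 and -0.30). It was 0.0163 for RNASEH1-AS1 and 0.0432 for SNHG7, both lowest against the wild type at 48 h (-1.28 and -0.61). MGC32805, with 0.024, fell at all times, by 0.80 at 96 h and by 1.59 at 48 h.

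The other genes were higher. TARID had an adjusted p of 0.00921 and log2 fold changes of 1.12, 2.52 and 0.63 at 24, 48 and 96 h. IGF2-AS had 0.0374, with 1.46, 3.64 and 1.19, the value at 48 h resting on 4 counts in the wild type. MAFA-AS1 had 0.0233, with 0.46, 1.60 and 0.46, and MCPH1-AS1 0.0403, with 0.39, 1.12 and 0.50. AC008537.4 had 0.0422, with -0.14 at 24 h and 1.01 at 96 h. NORAD was not lower at 24 h, so a difference between 24 h and a later time and the state of the knockdown cannot be told apart.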

How the results depend on the processing

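Counts of antisense genes that passed depended on the libraries in the model. Shares over all tested genes or pairs are not given for the other fits below. Whether antisense genes or the whole table moved cannot be read from these counts. With only the libraries of 1 time, 121, 109 and 65 passed at 24, 48 and 96 h, and 0, 1 and 0 ratios. With replicates 1 and 2 of the 48 h knockdown left out, 94, 88 and 50 genes and 46, 37 and 10 ratios passed. With 1 library left out in turn, 18 to 88 genes passed at 24 h, 149 to 489 at 48 h and 14 to 45 at 96 h, 17 to 185 for the difference between times, 170 to 347 for wild type 96 h against 24 h, and 4 to 38, 62 to 329 and 1 to 8 ratios. Without exon overlap 13, 89 and 5 genes and 4 and 23 ratios (24 and 48 h) passed. Replicate numbers did not pair the libraries (correlations of deviations -0.263 to 0.062). With a replicate block 168 genes passed at 48 h, 13 at 96 h and 13 for the difference between times, and 3, 40 and 0 ratios at 24, 48 and 96 h. With at least 50 counts in both genes 17 ratios passed at 96 h. DESeq2 called 37 higher and 24 lower at 24 h and 183 and 62 at 48 h. Total counts moved the median of all genes to 0.19 and 0.20 at 24 and 48 h. EEF1D turned to 0.01 with the scaling that follows abundance (adjusted p = 0.909) and ASB18 to -0.34 without those 2 knockdown libraries (adjusted p = 0.719), both at 48 h. For these changes the cause was not tested. Of the other settings 1096 values kept direction and side of the threshold and 182 lost the call, and of those with 1 library left out 2269 and 291. Most antisense genes are near 1 CPM, where counts limit what can be detected.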
